A study of Mus musculus with 4 samples.

Results

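The genes for the proteins of the mitochondrial ribosome, named Mrpl for the large subunit and Mrps for the small subunit, were examined in sorted cells of the newborn mouse retina. Members were all genes whose symbol is Mrpl or Mrps followed by a number and at most 1 letter. This rule used no expression level and found 76 of 21828 genes analyzed, 47 of them Mrpl and 29 Mrps. By the present assignment of these proteins, 49 members encode large-subunit proteins, including Mrps30 and Mrps18a despite their names, and 26 encode small-subunit proteins. The product of the remaining gene, Mrps36, is now regarded as part of the 2-oxoglutarate dehydrogenase complex and not of the ribosome.

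The retinas came from pHes1-EGFP mice, which carry a Hes1 promoter that drives destabilized EGFP, and the strain is given as FVB/N. Untreated animals were taken at postnatal day 1 (P1) or postnatal day 4 (P4), and a cell sorter divided the retinal cells into an EGFP-positive fraction (pHes1_EPC) and an EGFP-negative fraction (pHes1_ENC). All 4 groups therefore carry the transgene and differ in age or in EGFP, and each was measured as 1 RNA-seq library. EGFP marks every cell in which the promoter is active, retinal progenitors as well as Müller glia, and the labels do not say how many animals were pooled. Because each group is 1 library, the groups were not tested against each other, and all differences below describe these libraries.

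Mitochondria keep a small genome of their own, and the mitochondrial ribosome translates its messenger RNAs into core subunits of the respiratory chain and of ATP synthase. Its ribosomal RNAs come from the mitochondrial genome, whereas all of its proteins are encoded in the nucleus, made in the cytosol and imported. Many of these proteins have counterparts in bacterial ribosomes, and the others arose in mitochondria. In the retina, photoreceptors and dividing progenitors both depend on mitochondria, for energy and for building blocks.

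Expression is given as FPKM, the fragments per kilobase of transcript and per 1e6 mapped fragments, so that levels are per length. A difference is log2(FPKM + 1) in pHes1_EPC minus the same in pHes1_ENC, where 1 stands for a fold of about 2. The deposited tables give a 95% interval for each FPKM. The ratio of 2 libraries is given with the range that their intervals allow, which covers counting error only and neither animals nor sorts. Intervals are called apart when they do not overlap. All 76 members had an FPKM of at least 1 in all 4 libraries, and 72 reached 10 in at least 1 of them.

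Hes1 itself was at 16.6 in pHes1_ENC and 105 in pHes1_EPC at P1, and at 3.59 and 93.5 at P4, so the fractions followed their labels. The FPKM of all genes summed to 277433 and 294789 at P1 and to 303877 and 372016 at P4, and the depth read from the interval widths was 14.1 to 15.3 in units of 1e6 fragments. The 10 glial markers summed to 345 and 1336 at P1 and to 143 and 1979 at P4, pHes1_ENC first, and the 14 cell cycle genes summed to 382 and 1606 at P1 and to 113 and 645 at P4. The 8 rod markers summed to 587 and 35.2 at P1 and to 3146 and 609 at P4, and the 6 red blood cell genes to 214 and 0.857 and to 514 and 8.69. The 8 progenitor markers summed to 1076 and 2848 and then to 620 and 2069. Of them Rax alone was lower in pHes1_EPC at P1, at 222 and 207, and Hes6 differed little there, at 433 and 456. No marker of these 5 lists was at 0 in any library. The 5 pigment epithelium markers, which summed to 4.58, 1.72 and 8.80 in the other libraries, reached 46.8 in P4 pHes1_EPC, the library in which most members were highest. Of them Ttr was at 23.1 there, and Rpe65 and Ttr were at 0 in P1 pHes1_ENC. The 6 microglial markers summed to 2.07, 10.2, 7.29 and 10.2 in the same order. The 5 endothelial genes summed to 63.4, 212, 14.8 and 193, of which Kdr alone made up 189 in P4 pHes1_EPC, while Cdh5 was at 0 in both P4 libraries. The part of such cells in the values of the ribosomal protein genes was not tested. In bulk RNA, fewer cells of a type and less RNA in each cell cannot be told apart.

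Promoter sequences of 67 members, with 73 listed starts, were found in a RefSeq table of 250 bases before to 50 bases after each start (GRCm38.p6). Several letter motifs were searched on both strands in these promoters and in all 32851 promoters of the table. The motif CCGGAAG of ETS factors was in 32.9% of the member promoters, in 8.86% of all promoters and in 16.6% of those of expressed genes (FPKM of 1 or more in a library). The motif of nuclear respiratory factor NRF1, the letters GCGCA and GCGC with 1 base between them, was in 16.4%, 4.60% and 9.81%, and the motif AAGATGG of YY1 in 17.8%, 6.34% and 6.71%. Both ETS factors and NRF1 are known regulators of nuclear genes for mitochondria. In promoters of cytosolic ribosomal protein genes the shares were 36.4% for ETS, 7.58% for NRF1 and 16.7% for YY1. In those of oxidative phosphorylation subunits they were 24.2%, 27.3% and 15.2%. The general promoter letters CCAAT were in 41.1% of the member promoters against 37.4% of all, and GGGCGG, the GC box, in 52.1% against 35.7%, while 63.4% of the promoters of expressed genes held the GC box. The E-box CACGTG was in 9.59% against 7.15%, and TAATCC, read by the photoreceptor factor CRX, in 5.48% against 7.06%. Among the promoters of expressed genes, 38.2% held CCAAT, 9.89% the E-box and 5.6% TAATCC. For the E-box and TAATCC the members were thus near the expressed genes. A match of letters is a description and not a binding site.

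The 250 bases before the start are printed for 6 members that the results below turn on, 5′ to 3′ on the strand of the gene, with the motif letters in capitals. Mrpl36 (chr13:73330759-73331008, plus strand) and Mrpl42 (chr10:95501950-95502199, minus strand) were among the members with the largest difference at P4. Mrps21 (chr3:95871515-95871764, minus strand) had the highest level. Mrpl49 (chr19:6057756-6058005, minus strand) and Mrps6 (chr16:92058086-92058335, plus strand) stood lowest in pHes1_EPC relative to pHes1_ENC, and Mrpl34 (chr8:71464676-71464925, plus strand) changed sides between the ages. The letters after the start are not printed. All 6 positions are in GRCm38.p6, and the sequences are those of RefSeq.
Mrpl36: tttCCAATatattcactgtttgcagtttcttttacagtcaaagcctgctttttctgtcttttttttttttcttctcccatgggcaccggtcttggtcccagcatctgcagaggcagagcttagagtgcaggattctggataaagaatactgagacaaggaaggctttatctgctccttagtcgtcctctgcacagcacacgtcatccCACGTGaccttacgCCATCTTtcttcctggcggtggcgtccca
Mrpl42: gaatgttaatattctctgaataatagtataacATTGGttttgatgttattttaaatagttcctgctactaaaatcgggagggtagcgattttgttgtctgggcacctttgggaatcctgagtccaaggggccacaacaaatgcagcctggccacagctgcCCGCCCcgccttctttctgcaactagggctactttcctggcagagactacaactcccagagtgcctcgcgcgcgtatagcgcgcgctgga
Mrps21: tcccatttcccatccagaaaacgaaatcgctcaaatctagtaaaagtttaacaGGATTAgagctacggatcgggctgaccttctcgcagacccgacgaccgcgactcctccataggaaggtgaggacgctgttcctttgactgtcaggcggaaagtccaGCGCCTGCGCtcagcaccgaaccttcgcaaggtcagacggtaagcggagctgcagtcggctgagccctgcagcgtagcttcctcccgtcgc
Mrpl49: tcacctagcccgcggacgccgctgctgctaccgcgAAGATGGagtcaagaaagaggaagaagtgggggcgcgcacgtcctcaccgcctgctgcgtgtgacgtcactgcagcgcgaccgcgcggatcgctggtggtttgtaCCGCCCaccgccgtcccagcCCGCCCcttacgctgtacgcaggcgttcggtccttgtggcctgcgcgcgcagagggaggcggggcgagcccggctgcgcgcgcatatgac
Mrps6: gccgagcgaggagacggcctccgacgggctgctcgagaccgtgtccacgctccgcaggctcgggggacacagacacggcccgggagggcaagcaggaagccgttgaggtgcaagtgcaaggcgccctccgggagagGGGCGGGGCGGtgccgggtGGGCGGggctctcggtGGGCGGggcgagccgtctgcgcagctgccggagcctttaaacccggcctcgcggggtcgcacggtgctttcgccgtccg
Mrpl34: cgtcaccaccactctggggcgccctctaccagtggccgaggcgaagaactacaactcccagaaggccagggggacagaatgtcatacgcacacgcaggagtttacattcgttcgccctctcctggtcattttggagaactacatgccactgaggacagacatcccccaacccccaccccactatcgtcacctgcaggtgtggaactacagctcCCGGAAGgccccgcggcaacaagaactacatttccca
Mrpl36 held CCAAT, an E-box and, 29 bases before the start, the YY1 letters on the opposite strand. Mrpl42 held CCAAT and a GC box. Mrps21 held the NRF1 letters at -91 and the CRX letters at -197. Mrpl49 held 2 GC boxes and the YY1 letters at -215, and Mrps6 held 4 GC boxes of which 2 share a base. Mrpl34 held the ETS letters at -37. In the bases after the start, which are not printed, Mrpl42 held the YY1 letters at 28, Mrpl49 the YY1 letters at 17 and Mrps21 the ETS letters at 19. The members with the ETS letters had a median difference of 0.59 at P4 against 0.51 for those without, and for the NRF1 letters the medians were 0.35 and 0.57.

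The 76 genes were all expressed but at unequal levels, as the plot of FPKM by library shows. The mean FPKM of the highest member was 17.97 times that of the lowest. Mrps21, a small-subunit protein also found in bacteria, was at 57.2 in pHes1_ENC and 56.4 in pHes1_EPC at P1, and at 79.8 and 144 at P4. The fractions were alike at P1 and stood apart at P4. Mrps33, a small-subunit protein without a bacterial counterpart, followed with 50.3 and 48.7 at P1 and 77.6 and 100.1 at P4, again with pHes1_EPC high at P4. Mrpl52 and Mrpl33, of the large subunit, completed the group of members that came near or above an FPKM of 90 in P4 pHes1_EPC, with 105 and 91.9 there.

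At the other end, 4 members stayed under an FPKM of 10 in each library. Where 4 values are given from here on, those of P1 stand before those of P4, and pHes1_ENC stands before pHes1_EPC. Mrpl17 was at 3.54, 4.82, 3.84 and 6.57. Mrpl35 was at 3.89, 4.98, 4.44 and 7.86. Even at these low levels the P4 pHes1_EPC value was the highest of the 4. Mrpl1 ranged from 5.37 to 6.96 and Mrpl19 from 5.98 to 7.87, with P4 pHes1_EPC highest in both. Mrpl15 was the lowest of the members that reached 10, with 7.59, 7.75, 8.97 and 11.2. These 5 genes had transcripts of 3556 to 5000 bases, whereas the median member had 1164.

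The order of levels was similar in all libraries. Across the 76 members, log2(FPKM + 1) in any library followed that in any other with a Pearson r of 0.857 to 0.956, a description of genes that share libraries. For 50 to 57 members in each library the deposited FPKM lay above its own interval, by up to 1.91 times the interval's midpoint in short transcripts. This excess differed between libraries by at most 1.07 times for a given member, so it touches the order of the genes more than the comparison of libraries.

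**Figure D1:**
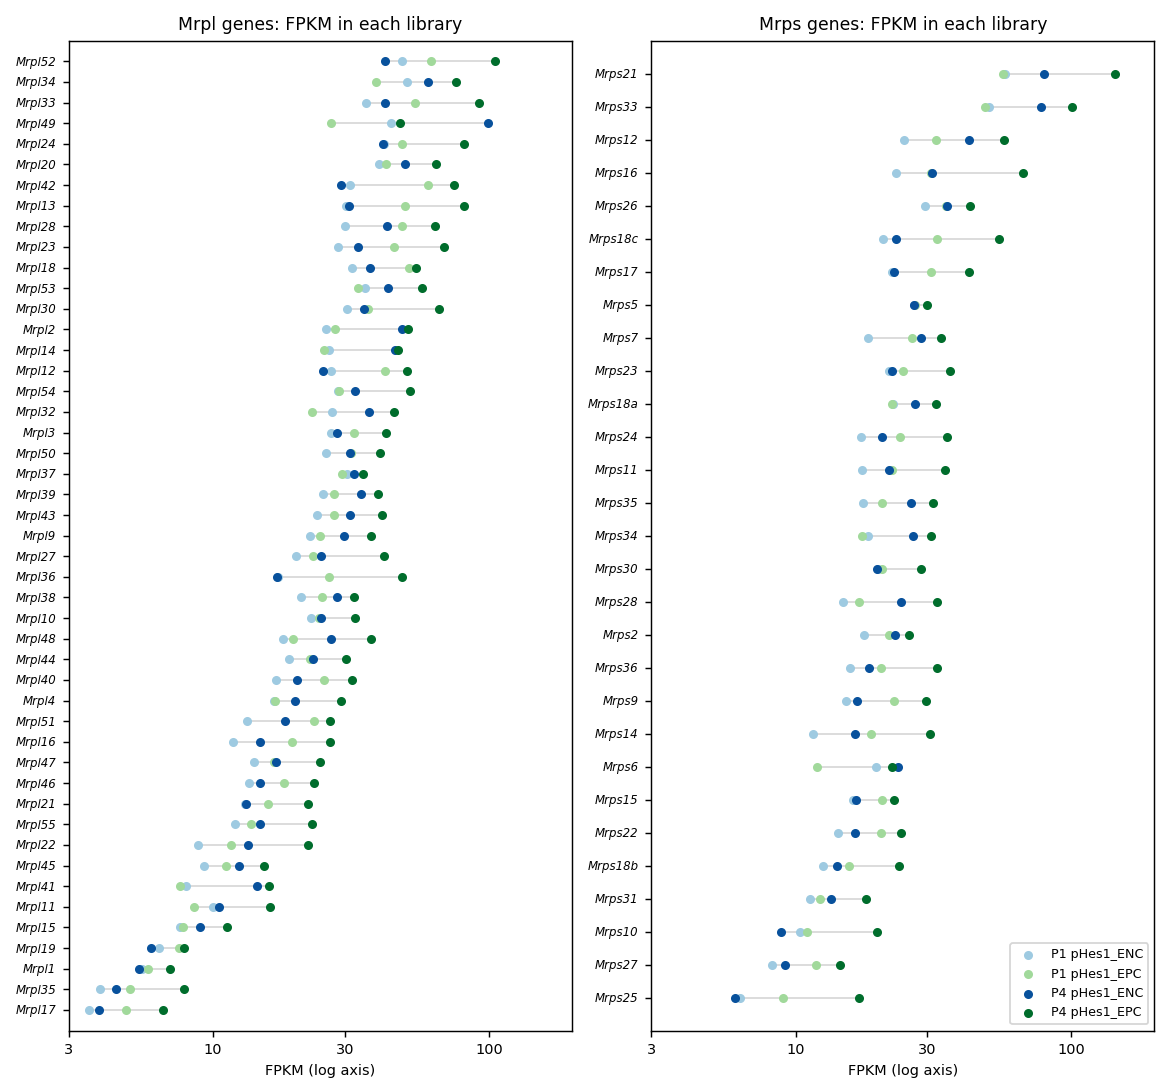
FPKM of the 47 Mrpl genes (left) and 29 Mrps genes (right) on a log axis, 1 point for each library and a grey line from the lowest to the highest. The dark green point of P4 pHes1_EPC lies farthest right in 74 of 76 rows, and the exceptions are Mrpl49 and Mrps6.

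At P1 most of the genes were slightly higher in the EGFP-positive cells. The median FPKM of the members was 19.8 in pHes1_ENC and 23.6 in pHes1_EPC, and the median difference was 0.24, against 0.02 over the 12941 expressed genes, those with an FPKM of 1 or more in a library. The difference was above 0 in 63 members, where 51.7% of all these genes were above 0. It was above 0 in 56 to 61 members under the 3 scalings tried, equal FPKM sums, median-of-ratios factors and quantile normalization. Under these the median over all genes lay between -0.05 and 0.04. With the trend with transcript length subtracted, 57 members were above 0 and the median over all genes was 0.02. No member reached a difference of 1 or of -1, which 10.3% of genes exceeded upward and 11.5% downward. Intervals were apart and higher in pHes1_EPC for 29 members (background 34.9%), apart and lower for 3 members (background 32.7%) and overlapping for 44. The share of members called higher was thus near the background, and few members were lower.

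The largest P1 differences were in the large subunit. Mrpl42, a protein that arose in mitochondria, was at 31.4 in P1 pHes1_ENC and 59.9 in P1 pHes1_EPC, a ratio of 1.91 with a range of 1.54 to 2.41. Mrpl51 was at 13.3 and 23.2, with a ratio of 1.74 (1.40 to 2.17). Mrpl13, a counterpart of a bacterial protein, was at 30.3 and 49.5, with a ratio of 1.63 (1.31 to 2.02). All of these intervals were apart. Mrpl28 and Mrpl18 came next, both with a ratio of 1.62. Of the 36-base windows of Mrpl42, Mrpl51 and Mrpl18, 31.5%, 23.5% and 22.6% recur elsewhere in the genome. For Mrpl13 and Mrpl28 the share was 0%.

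Mrpl51 and Mrpl18 were less different at P4 than at P1. At P4 Mrpl51 was at 18.3 and 26.5, with a difference of 0.51 after 0.76 at P1. Mrpl18 was at 37.1 and 54.4, with a difference of 0.54 after 0.68. In all, the signed difference was lower at P4 in 8 members, and in 4784 of the 12941 expressed genes. Mrpl2, Mrpl28, Mrpl38, Mrps2 and Mrps7 also came nearer to 0, whereas Mrpl49 moved further below 0, from -0.69 to -1.04. Mrps7, which lies in the head of the small subunit, was at 18.4, 26.3, 28.5 and 33.8, with differences of 0.50 and 0.24. Mrps2 was at 17.8, 21.8, 22.9 and 25.7. Their intervals were apart between the fractions at P1 and overlapped at P4, where with equal FPKM sums the differences turned to -0.05 and -0.12.

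At P4 nearly all members were higher in pHes1_EPC as deposited. The median FPKM was 24.3 in pHes1_ENC and 33.2 in pHes1_EPC. The median difference was 0.53, against 0.15 over all expressed genes and 0.20 over the 8404 genes that reached 10. The difference was above 0 in 74 members (background 58.6%). Under these scalings it was above 0 in 61, 68 and 71 members, where the medians over all expressed genes were -0.09, 0.00 and -0.03. With the length trend subtracted it was above 0 in 57 members, where the median over all genes was 0.15. Intervals were apart and higher in 61 members (background 44.3%), apart and lower in 1 (background 29.2%) and overlapping in 14. A difference above 1 was reached by 10 members (background 16.6%) and a difference below -1 by Mrpl49 alone (background 9.15%). The distance of the members' median from that of all expressed genes was 0.38 as deposited, 0.34 with equal sums and 0.41 under quantile normalization. It was 0.11 once the trend with transcript length was subtracted.

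The 10 members with a P4 difference above 1 were Mrpl13, Mrpl23, Mrpl33, Mrpl36, Mrpl42, Mrpl52, Mrps10, Mrps16, Mrps18c and Mrps25, and the members nearest the limit were Mrpl23 with 1.01 and Mrpl12 with 0.98. Mrpl23 and Mrps16 are named here after their values were seen. Mrpl36, a small zinc-binding protein of the large subunit, had FPKM of 17.2, 26.4, 17.01 and 48.5. The intervals of both pHes1_ENC values overlapped, whereas pHes1_EPC was above them at each age and highest at P4. The P4 ratio of 2.85 (2.22 to 3.64) was the largest of all members.

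Mrpl13 had nearly the same pattern at 30.3, 49.5, 31.0 and 81.1, with a P4 ratio of 2.61 (2.13 to 3.17). Mrpl42 was at 31.4, 59.9, 29.1 and 74.99, with a P4 ratio of 2.57 (2.05 to 3.27). In both genes the pHes1_ENC levels at P1 and P4 overlapped and both pHes1_EPC levels lay above them. Mrps25, a small-subunit protein without a bacterial counterpart, was at 6.30, 9.01, 6.04 and 16.9, with a P4 ratio of 2.80 (2.43 to 3.25). Its longest transcript of 6073 bases shares 58.2% of its exon bases with Nr2c2 on the other strand, and the library did not mark strand. Nr2c2, which codes for a nuclear receptor, was at 20.4, 24.0, 19.1 and 10.8, with differences of 0.22 and -0.77. Mrpl13 shares 27% of its transcript with Mtbp, also on the other strand, which had differences of 1.13 and 0.73.

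Mrpl52, the shortest member with 412 bases, was at 48.4, 61.5, 42.2 and 105, so that P4 pHes1_EPC stood above the other 3 libraries. Its intervals overlapped at P1 and the P4 ratio was 2.49 (1.8 to 3.24). Mrps10, which in bacteria has a counterpart in the head of the small subunit, was at 10.4, 11.04, 8.90 and 19.7 and had the largest gain in difference, from 0.08 at P1 to 1.06 at P4. Of its 36-base windows 43.4% also occur elsewhere in the genome, so reads may be shared with other copies. Such windows made up 76.9% in Mrpl23, 33.1% in Mrps16, 31.6% in Mrps18c, 31.5% in Mrpl42 and 16.4% in Mrps25. Of the 48 members with under 5% of such windows, 4 had a P4 difference above 1. The part of copied sequence in these differences was not tested.

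**Figure D2:**
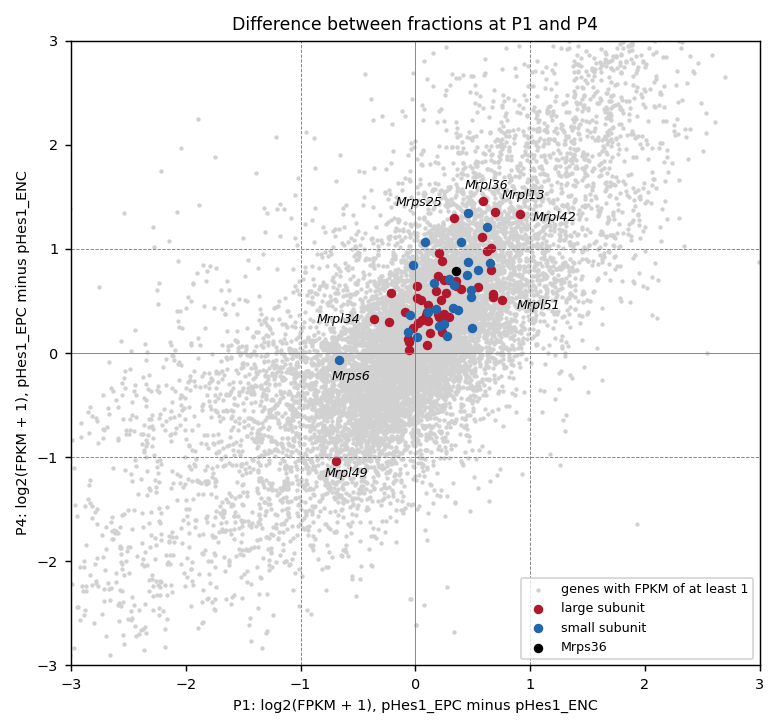
Difference between the fractions in log2(FPKM + 1) at P1 (horizontal axis) and P4 (vertical axis) for the members and, in grey, for the expressed genes, with dashed lines at 1 and -1 and genes beyond 3 on an axis not drawn. The members lie mostly right of and above 0 with 10 above the upper dashed line, and Mrpl49 lies alone below the lower one.

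Mrpl49 was the clear exception among the ribosomal protein genes. It encodes a large-subunit protein without a bacterial counterpart and lies at 19:6053629-6057751 on the minus strand (NCBI37/mm9), in 4 exons. Its FPKM was 44.0 in pHes1_ENC against 26.8 in pHes1_EPC at P1, and 98.9 against 47.7 at P4. The EGFP-negative cells were thus higher at both ages, and the level was higher at P4 in both fractions. The P1 ratio of pHes1_ENC to pHes1_EPC was 1.64 (1.44 to 1.86) and the P4 ratio 2.07 (1.89 to 2.29). Mrpl49 had the highest FPKM of all members in P4 pHes1_ENC, and it was the only member whose P4 minus P1 difference in pHes1_ENC exceeded 1, with 1.15 (background 4.67%).

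No 36-base window of the Mrpl49 transcript recurs in the genome, and its exons share 4.82% of their bases with Syvn1. The difference at P4 lay between -1.04 and -1.32 as deposited and under each scaling and the length trend. Its start lies 142 bases from that of Fau, which is read in the opposite direction and codes for a ubiquitin-like protein fused to a protein of the cytosolic ribosome. Fau was at 306, 371, 289 and 625, with differences of 0.28 at P1 and 1.11 at P4, on the other side from Mrpl49 at both ages.

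Mrps6, a small-subunit protein with a bacterial counterpart, was the other member that was below 0 at both ages. It was at 19.6, 12.0, 23.5 and 22.4. P1 pHes1_EPC was the low library and the other 3 lay close together. The P1 difference was -0.67 with intervals apart, and at P4 the difference of -0.07 had overlapping intervals. Of its transcript 18.8% is shared with Slc5a3 on the same strand, which had a difference of -0.77 at both ages.

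Mrpl34, which has a bacterial counterpart, changed sides. It was at 50.4, 39.0, 60.2 and 75.8, so that pHes1_EPC was the lowest library at P1 and the highest at P4. The difference was -0.36 at P1 and 0.33 at P4, with intervals apart at both ages. At P4 it was 0.04 with equal FPKM sums and -0.18 once the trend with transcript length was subtracted. No other member was apart in opposite directions. Mrpl32, whose product is trimmed by a mitochondrial protease before it enters the ribosome, had -0.23 and 0.30 at levels of 27.05, 22.9, 36.8 and 45.4, and its intervals overlapped at P1. Its P4 difference also turned below 0 with the length trend subtracted, to -0.22.

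**Figure D3:**
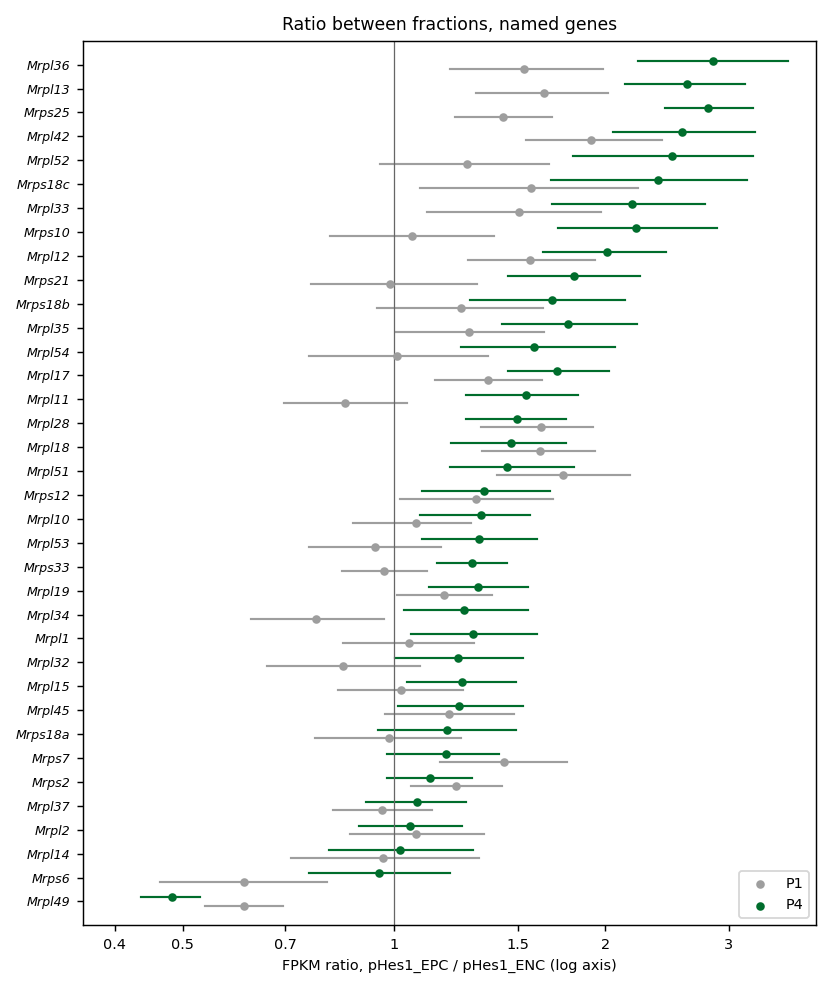
Ratio of FPKM in pHes1_EPC to pHes1_ENC on a log axis for the 36 members named by the rule, at P1 (grey) and P4 (green), with lines for the range that the 95% intervals allow. Most green points lie right of 1 and right of the grey ones, up to 2.85 in Mrpl36, whereas both points of Mrpl49 lie left of 1.

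With age the genes were higher in both fractions as deposited, by more in the EGFP-positive cells. Their median change stood above that of all genes by 0.39 in pHes1_EPC and 0.25 in pHes1_ENC. With the length trend subtracted these distances were 0.10 and 0.14, so that of pHes1_EPC was then no longer the larger. In pHes1_EPC all 76 members had a higher FPKM at P4 than at P1 (background 63.2%), with a median of 0.57 against 0.17 over all genes. With the length trend subtracted the median was 0.28, and all genes stayed at 0.17. Under the scalings 63 to 71 members were above 0, where the medians over all genes lay between -0.10 and 0.02. With the length trend subtracted 67 members were above 0. Intervals were apart and higher in 68 (background 43.3%), and the difference exceeded 1 in 3 members (background 7.04%), Mrps16, Mrps21 and Mrps33. Of these, Mrps21 had the largest, with 1.34. All 3 belong to the small subunit. Of the windows of Mrps16, Mrps21 and Mrps33, 33.1%, 48.1% and 50.9% recur elsewhere in the genome. Of the 48 members with under 5% of such windows, 0 exceeded 1 in this comparison. The part of copied sequence in these values was not tested.

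In pHes1_ENC 65 members were higher at P4 (background 49.3%), with a median of 0.24 against -0.01 over all genes. Under the scalings 55 to 61 were higher, where the medians over all genes lay between -0.12 and 0.02. With the length trend subtracted 62 members were higher. The median was 0.12 with equal FPKM sums, where all genes were at -0.12, and 0.13 with the length trend subtracted. Intervals were apart and higher in 24 (background 27.4%) and apart and lower in 0 (background 31.5%). This comparison does not use the P4 pHes1_EPC library, which had the largest FPKM sum. In some members, Mrpl2 and Mrpl14 among them, the fractions overlapped at each age and the ages were apart in each fraction. Mrpl2, which in bacteria has a counterpart at the peptidyl transferase center, was at 25.7, 27.6, 48.4 and 50.9. Mrpl14 was at 26.2, 25.3, 45.8 and 46.8. Mrpl38, Mrpl39, Mrpl41, Mrps34 and Mrps35 had the same calls, with P4 differences between the fractions of 0.13 to 0.26. Mrpl37 differed little in any comparison, with 30.6, 29.4, 32.5 and 34.9. The P4 differences of 0.07, 0.03 and 0.10 in Mrpl2, Mrpl14 and Mrpl37 turned below 0 under each scaling.

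As deposited, P4 pHes1_EPC was the highest of the 4 libraries for 74 members, where 34.5% of all genes had their highest value. Its interval was above those of the other 3 libraries for 54 members, where this held for 19.6% of genes. With equal FPKM sums, 61 members were higher in P4 pHes1_EPC than in P4 pHes1_ENC, and 63 than in P1 pHes1_EPC. The medians over all genes were then -0.09 and -0.10. Intervals were apart and higher in pHes1_EPC at both ages for 27 members (background 28.0%). The lowest value was in P1 pHes1_ENC for 52 members (background 19.6%), in P1 pHes1_EPC for 13 and in P4 pHes1_ENC for 11. Of the 12941 expressed genes, 4203 were lowest in P1 pHes1_EPC and 4354 in P4 pHes1_ENC. The difference between the fractions was larger at P4 than at P1 for 68 members (background 63.0%). It was larger for 50 to 54 under the scalings and for 54 with the length trend subtracted. The median of this gain was 0.29 over the members and 0.19 over all genes. It was 0.10 over the members with equal sums, 0.15 under median-of-ratios scaling and 0.14 under quantile normalization, where all genes were at 0.01, 0.06 and -0.02. With the length trend subtracted it was 0.16, below the 0.19 of all genes. The gain exceeded 1 in 0 members (background 12.1%), with 0.98 in Mrps10 as the largest. The P1 and P4 differences of the members followed each other with r = 0.685 across the 76 genes, and over all expressed genes with r = 0.727.

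Both subunits shared this pattern. The 49 large-subunit genes had medians of 0.21 and 0.51 for P1 and P4. The 26 small-subunit genes had 0.31 and 0.57. The difference at P4 was above 0 in 48 of the 49 and in 25 of the 26, with Mrpl49 and Mrps6 as the exceptions. Proteins with a bacterial counterpart had higher medians at P4 than those that arose in mitochondria, 0.58 (30 genes) against 0.38 (19 genes) in the large subunit and 0.70 (16 genes) against 0.46 (10 genes) in the small one. The median transcript length was 1140 and 1411 bases in the first pair and 1026 and 1367 in the second, so the first of each pair was the shorter. Over both subunits the medians were 0.59 and 0.39, and with the length trend subtracted 0.30 and 0.17.

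The stalk of the large subunit recruits translation factors, and its proteins were uneven. Mrpl12, the stalk protein that is also known to bind the mitochondrial RNA polymerase, was at 26.8, 41.9, 24.99 and 50.3, with pHes1_EPC above pHes1_ENC at both ages. The P1 ratio was 1.56 (1.28 to 1.94) and the P4 ratio 2.01 (1.63 to 2.44). Mrpl10, which carries Mrpl12 on the ribosome, was at 22.6, 24.2, 24.5 and 32.6, and only the P4 fractions were apart. Mrpl11, at the base of the stalk, was at 10.01, 8.51, 10.5 and 16.1, with P4 pHes1_EPC alone high. Mrpl53 and Mrpl54, found only in mitochondria, were at 33.5 to 57.0 and 28.4 to 51.6, likewise highest in P4 pHes1_EPC, with P4 differences of 0.40 and 0.65. The exon bases of Mrpl53 lie wholly within those annotated for Ccdc142 on the same strand, which had differences of -0.37 and -0.81.

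Of the S18 proteins, of which mammals have 3, Mrps18c showed the largest difference. It was at 20.8, 32.6, 23.1 and 54.9, with ratios of 1.57 (1.09 to 2.23) and 2.38 (1.67 to 3.19), and pHes1_EPC was high at both ages. Mrps18b was at 12.6, 15.7, 14.1 and 23.7, and its fractions were apart at P4 only. Mrps18a, which sits in the large subunit, was at 22.7, 22.3, 27.2 and 32.4 with overlapping fractions at both ages. Its P4 difference of 0.24 turned to -0.04 with equal FPKM sums. Of the windows of Mrps18b and Mrps18c, 60.7% and 31.6% recur elsewhere in the genome.

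Mrps12, a protein of the decoding center, was at 24.7, 32.3, 42.5 and 57.0 and was higher with age in both fractions as well as in pHes1_EPC at each age. Mrpl45, which faces the inner membrane where the new proteins are inserted, was at 9.27, 11.1, 12.4 and 15.3, with the same order of libraries. Their differences at P4 were 0.42 and 0.29.

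Over all genes the differences fell with transcript length. Across the 76 members, r with the log10 of length was 0.06 (rho 0.10) at P1 and -0.20 (rho -0.23) at P4, given as a description. The members were short, at 412 to 6073 bases with a median of 1164, against 3050 over expressed genes, and 57 of 76 fell in the shortest of 4 length classes of equal size, up to 1930 bases. In that class all 3085 genes had median differences of 0.14 and 0.47 for P1 and P4, and the 57 members had 0.21 and 0.58. Within the class 55 of 57 members were above 0 at P4 (background 74.5%), 47 were apart and higher (background 57.1%), 9 were above 1 (background 22.7%) and 55 had their highest value in P4 pHes1_EPC (background 58.2%). In the next classes the medians at P4 were 0.21 over all genes and 0.35 over 9 members, and then 0.06 and 0.39 over 8 members. In the longest class all genes were at -0.13 and the 2 members at 0.85. With the trend over all genes subtracted, the median was 0.14 over the members and 0.02 over all genes at P1. At P4 it was 0.26 and 0.15. The P4 differences of Mrpl53, Mrps12 and Mrps33 then turned below 0, to -0.12, -0.10 and -0.08.

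**Figure D4:**
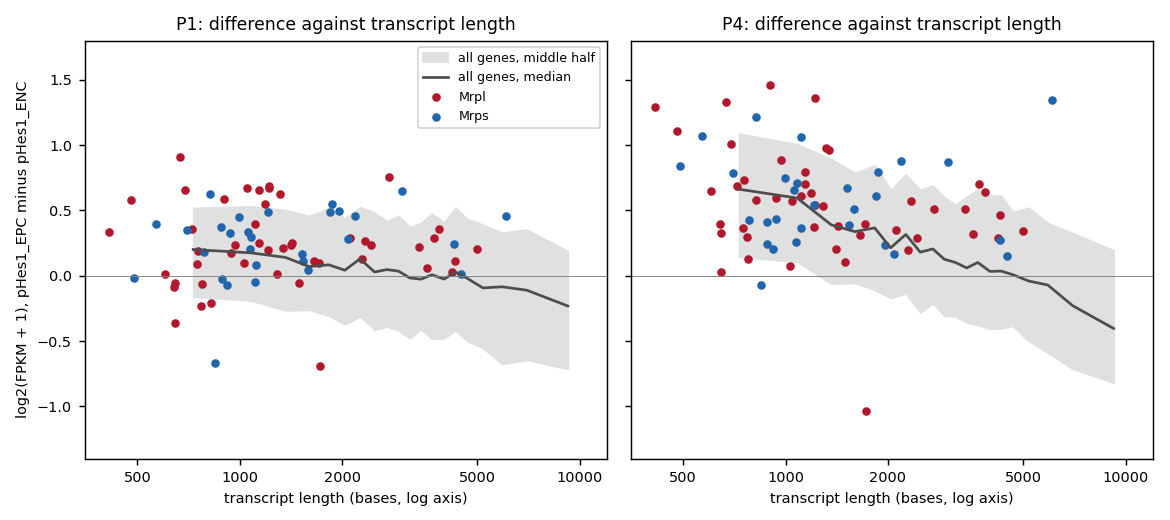
Difference between the fractions in log2(FPKM + 1) against transcript length on a log axis at P1 (left) and P4 (right), with the members as points and, in grey, the median and the middle 50% of the expressed genes in 20 length bins. The grey line falls with length and most members lie on or above it at both ages.

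Other proteins that join the mitochondrial ribosome under other names mostly went the same way. Of 7 such genes, 6 were above 0 at both ages, as were 5637 of the 12941 expressed genes. The medians over the 7 were 0.24 and 0.54. Chchd1, of the small subunit, was at 45.0, 61.3, 52.3 and 97.4, with pHes1_EPC high at both ages and highest at P4. Dap3 was at 9.34, 11.6, 7.78 and 13.1, and Ptcd3 at 17.8, 21.3, 15.9 and 22.1, both with intervals apart at both ages. The P4 differences of Aurkaip1, Ict1 and Mrp63 were 0.58, 0.54 and 0.37. Gadd45gip1, a large-subunit protein also known as a nuclear regulator, was the exception at 34.0, 16.4, 48.4 and 30.1. Like Mrpl49 it was lower in pHes1_EPC at each age and higher at P4 in each fraction, with differences of -1.01 and -0.67 and intervals apart.

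The 10 translation factors of mitochondria were mixed in direction, with 6 above 0 at P4 (background 58.6%). Intervals at P4 were apart and higher in 4 (background 44.3%) and apart and lower in 1 (background 29.2%). The median difference of the 10 was 0.00 at P1 and 0.10 at P4. The latter turned to -0.14 with equal FPKM sums, -0.05 under median-of-ratios scaling and -0.12 under quantile normalization. With the length trend subtracted it was 0.13, against 0.15 over all genes, at a median transcript length of 2682 bases. The elongation factors Tufm and Tsfm were higher in pHes1_EPC, Tufm at 27.6, 34.5, 28.1 and 47.6 and Tsfm at 10.9, 18.1, 10.5 and 19.3. Guf1, a GTPase, was at 20.8, 21.4, 13.2 and 22.7 and stood apart at P4, with a difference of 0.74. Gfm2, used in ribosome recycling, was lower in pHes1_EPC with -0.27 and -0.34. Mrrf, the recycling factor, was apart in opposite directions with -0.33 and 0.35. The initiation factors Mtif2 and Mtif3 had -0.22 and -0.13 at P1 and -0.12 and -0.04 at P4, and the elongation factor Gfm1 had 0.30 and -0.07. The release factors Mtrf1 and Mtrf1l had 0.06 and 0.13 at P4. Intervals overlapped at P4 for these 5.

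The 17 mitochondrial tRNA synthetases, which charge tRNAs for this ribosome, had medians of 0.27 and 0.40, with intervals apart and higher in 8 at P1 (background 34.9%) and 12 at P4 (background 44.3%) and apart and lower in 0 at either age. Ears2 had the largest P4 difference with 0.74 and Yars2 followed with 0.68. With age in pHes1_EPC their median was 0.08, against 0.57 for the ribosomal proteins. The median transcript lengths were 3322 and 1164 bases. In this comparison all genes of 3049 to 4486 bases had a median of 0.11, and those of the shortest class 0.49. Of 15 factors that assemble or modify the ribosome, 6 were apart and higher at P4, a share of 40.0% against the background of 44.3%, and 1, the rRNA methyltransferase Nsun4, was apart and lower (background 29.2%). Their median was 0.26. Mrm1, another rRNA methyltransferase, was the highest with a difference of 1.30 at FPKM of 3.20, 6.37, 1.62 and 5.45.

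Of 11 genes that copy, transcribe or process the mitochondrial genome, 8 were apart and higher at P4 (background 44.3%), with a median of 0.44. Polg, the mitochondrial DNA polymerase, was at 13.6, 31.9, 8.99 and 26.2, with differences of 1.17 and 1.45. It was high in pHes1_EPC at both ages. Tfam, which packs mitochondrial DNA, had 0.46 and 0.54, and the RNA polymerase Polrmt had 0.10 and -0.04 with overlapping intervals.

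Subunits of the cytosolic ribosome and of oxidative phosphorylation give the setting for these values. The 77 cytosolic ribosomal protein genes had a median difference of 0.28 at P1, close to that of the mitochondrial set. At P4 it was 1.07, with 54 above 1 (background 16.6%). In pHes1_ENC their median with age was -0.04, where the mitochondrial set had 0.24. The 74 oxidative phosphorylation genes had 0.16 and 0.47 between the fractions and 0.91 and 0.52 with age in pHes1_EPC and pHes1_ENC. The median transcript lengths were 855 and 892 bases, against 1164 for the mitochondrial ribosomal proteins.

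**Figure D5:**
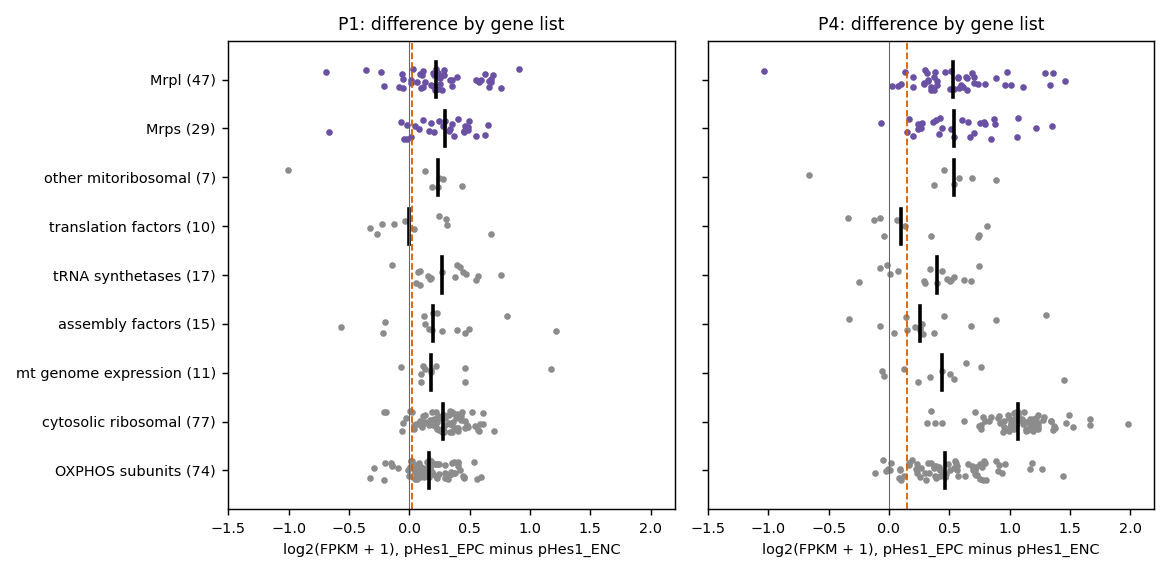
Difference between the fractions in log2(FPKM + 1) at P1 (left) and P4 (right), with 1 point for each gene, a black bar at the median of each list and the number of genes in brackets. The dashed orange line is the median of all expressed genes, and at P4 the medians of the Mrpl and Mrps genes lie right of it, below that of the cytosolic ribosomal genes.

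The medians were also taken without the genes that overlap others or have copies. Exon bases were shared with another annotated gene by 23 members, and the 53 others had medians of 0.24 at P1 and 0.57 at P4. At least 30% of the 36-base windows recurred elsewhere in the genome for 12 members, and the 34 members with no overlap and under 5% of such windows had medians of 0.22 and 0.47. The counts behind a member ranged upward from 73.1 implied fragments, with library medians of 284 to 414, at which the 95% intervals of a difference had a median half-width of 0.22 on the log2 scale at P1 and 0.21 at P4.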

How the data were processed

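RNA from EGFP-positive and EGFP-negative retinal cells at P1 and P4 was measured in 4 libraries of single-end 36-base reads. According to the methods and the submitters' processing notes, the authors used bcl2fastq 1.8.4, aligned to mm9 with TopHat2 2.0.8b, allowing up to 50 positions for a read, and estimated FPKM with Cufflinks 2.1.1. The deposited FPKM, with 95% intervals and a status, were used without scaling, and reads and counts were not used here. Multi-position reads and short-transcript corrections can move FPKM of copied or short genes.

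Tables were joined on gene and position, 787 small-RNA lines were left out of 23021, and for a repeated symbol the line with the highest summed FPKM was kept. A pseudocount of 1 was added before log2. The backgrounds are genes with an FPKM of 1 or more in a library. Transcript length (longest transcript), exon overlap and copied 36-base windows came from GENCODE and the NCBI37 genome, and 95.3% of expressed genes had a length. Python 3.11.15, numpy 2.4.6, pandas 2.3.3, scipy 1.17.1 and matplotlib 3.10.9 were used, and the steps were tested on simulated data.

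The members, lists and rules were chosen with earlier results of these data known. Named members were the 5 largest and 5 smallest differences at P1, at P4 and in their change, the 5 highest and 5 lowest mean FPKM, members under an FPKM of 10, members apart in opposite directions, and the stalk, S18, Mrps12 and Mrpl45 genes. Named outside them were the other ribosomal proteins, the translation factors and up to 5 genes with the largest P4 difference in each other list. Partners, overlapping genes, Mrpl23, Mrps16, Mrpl38, Nsun4, Polrmt and Tfam, where they fall outside this rule, were named after their values were seen. Alternatives were another pseudocount, ratios, filters, 3 scalings, the length trend, summed lines, the status and the intervals.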

Additional observations from a re-analysis of the deposited data

Results flagged for a closer look

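Mrpl34 was the member whose intervals between the fractions were apart in opposite directions at the 2 ages, with a difference of -0.36 at P1 and 0.33 at P4 in log2(FPKM + 1), pHes1_EPC minus pHes1_ENC. The difference between the ages was not tested, because each group is 1 library. At P4 the value was 0.15 under median-of-ratios scaling, 0.04 under quantile normalization and -0.18 with the trend with transcript length subtracted, whereas at P1 it was below 0 in each of these.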

How the results depend on the processing

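No paired analysis was possible because each group is 1 library and the labels give no replicate numbers, and no library could be left out for the same reason. The median P4 difference of the 76 members was 0.25 after rescaling to the same total and 0.26 with the length trend subtracted, instead of 0.53, and the median change with age in pHes1_EPC was 0.25 and 0.28 instead of 0.57. The number of members with a P4 difference above 1 was 5 under the same total, 6 under median-of-ratios scaling, 5 under quantile normalization and 1 with the length trend subtracted, instead of 10, and over all expressed genes the shares were 11.9%, 13.5%, 11.9% and 15.5%. For the change with age in pHes1_EPC it was 1, 1 and 0 under these 3 scalings instead of 3. Over all expressed genes the shares were 3.59%, 4.54% and 4.58% under the scalings, instead of 7.04%. The number of members whose difference was larger by over 1 at P4 was 1 with a pseudocount of 0.1, 1 as a ratio without pseudocount and 1 with the length trend subtracted, instead of 0. Over all expressed genes these shares were 18.6%, 19.6% and 12.5%, instead of 12.1%. Taking intervals that do not overlap as the call gave 29 higher and 3 lower members at P1 (backgrounds 34.9% and 32.7%) and 61 higher at P4 (background 44.3%). With age it gave 68 higher in pHes1_EPC (background 43.3%) and 24 higher in pHes1_ENC (background 27.4%). The other 139 of 158 such values stayed within their limits, among them the medians without overlapping or copied members, a choice made after seeing the data. Of 72 values of named members at P1 and P4, the sign turned in 10 under the same total, 6 under median-of-ratios scaling, 4 under quantile normalization and 12 with the length trend subtracted, none of them above 0.42 in size before. The cause was not tested. Depth limits single members to about 0.2 on the log2 scale.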

Other observations

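Among the members, 17 had a gene in the opposite direction whose start lay near their own. Mrpl46, of the large subunit, and Mrps11, of the small subunit, start 53 bases apart, and both were highest in P4 pHes1_EPC. Mrpl46 was at 13.5 in pHes1_ENC and 18.1 in pHes1_EPC at P1, and at 14.8 and 23.2 at P4. Mrps11 was at 17.5 and 22.4, and then at 21.8 and 34.9. The P1 difference was 0.39 in Mrpl46 and 0.34 in Mrps11, and the P4 difference was 0.61 and 0.65. Sars2, the mitochondrial seryl-tRNA synthetase, starts 221 bases from Mrps12 and had 0.45 and 0.48, against 0.37 and 0.42 in Mrps12. Mitd1, 66 bases from Mrpl30, had 0.48 and 1.04, against 0.24 and 0.89. Some other partners differed from their member. Ncapd2, a condensin subunit that starts 570 bases from Mrpl51, had differences of 1.75 and 2.06, against 0.76 and 0.51 in Mrpl51. Ppp1r10, which starts 45 bases from Mrps18b, had -0.52 and -0.36, against 0.30 and 0.71. These pairs were picked after their values were seen, and reads of a pair whose ends overlap cannot be told apart without strand.

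Of 10 regulators of nuclear genes for mitochondria, the median difference was 0.05 at P1 and 0.10 at P4, and the latter turned to -0.18 with equal FPKM sums. Nrf1 was at 20.8, 22.2, 21.5 and 20.9, with P1 before P4 and pHes1_ENC before pHes1_EPC, and its intervals overlapped at each age. Gabpa, an ETS factor, had differences of 0.45 and 0.31 and Yy1 had 0.35 and 0.28, with intervals apart at both ages. Pprc1, a coactivator, was at 4.76, 10.7, 2.81 and 6.83 and was higher in pHes1_EPC at both ages. Ppargc1b, of the same coactivator family, was at 0.24, 0.57, 3.44 and 0.65, with P4 pHes1_ENC alone high and a P4 difference of -1.43. Nrf1 and Ppargc1b were named after their values were seen.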
